A study of Mus musculus with 4 samples.

Results

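Stressed and quiet myocardium were compared within 1 mouse heart section taken 1 day after permanent ligation of the left anterior descending coronary artery, the operation that produces a myocardial infarction. The section came from 1 adult ICR mouse (Hsd:ICR, an outbred CD1 stock; female per the study's methods), and the 3 other sections of the series came from 1 such mouse each at days 4, 7 and 14 after the same ligation. The labels and the methods give day 1 for the section compared, whereas the running text of the publication gives the day after. No sham-operated section was among the samples, so the quiet tissue of the same infarcted heart was the only reference. Visium counts messenger RNA molecules as UMIs (unique molecular identifiers) at fixed spots under a frozen section, and each spot can hold several cells of different types.

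Spots were selected on the readout itself. Of 2151 day 1 spots under tissue, and of 9102 in the whole series, 1884 passed a hemoglobin limit of 1% of UMIs and a minimum of 500 UMIs. They were ranked by the share of their UMIs in 4 transcripts, Ankrd1, Flnc, Xirp2 and Nppb. The top 30%, 565 spots, were called stressed, and the bottom 40%, 754 spots, were called quiet. The 4 genes chose the groups, so their difference between the groups is no result.

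Heart muscle cells under wall stress or ischemia are known to switch genes in a recognisable way. Natriuretic peptides and fetal or skeletal muscle isoforms of contractile genes come on, while genes for fatty acid oxidation, mitochondrial respiration and adult ion channels go down. Ankrd1 encodes a stretch-sensing repeat protein of the sarcomere, Flnc the actin crosslinker filamin C of the Z-disc, Xirp2 an actin-binding protein of the intercalated disc, and Nppb B-type natriuretic peptide.

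The share of the 4 genes was not spread evenly over the section. The histogram had 1 peak of 159 spots between 0.0631% and 0.0794% and a second of 208 spots between 1% and 1.26%. Between them, only 33 spots lay in each of the bins from 0.251% to 0.316% and from 0.316% to 0.398%. The quiet limit lay within the lower peak, and the stressed limit on the rise to the upper one. The last stressed spot had 0.8216% and the first one outside 0.8183%, and the last quiet spot had 0.1046% and the first one outside 0.105%. The median share was 1.19% in stressed and 0.0596% in quiet spots, and 27 spots had no UMI of the 4 genes.

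**Figure D1:**
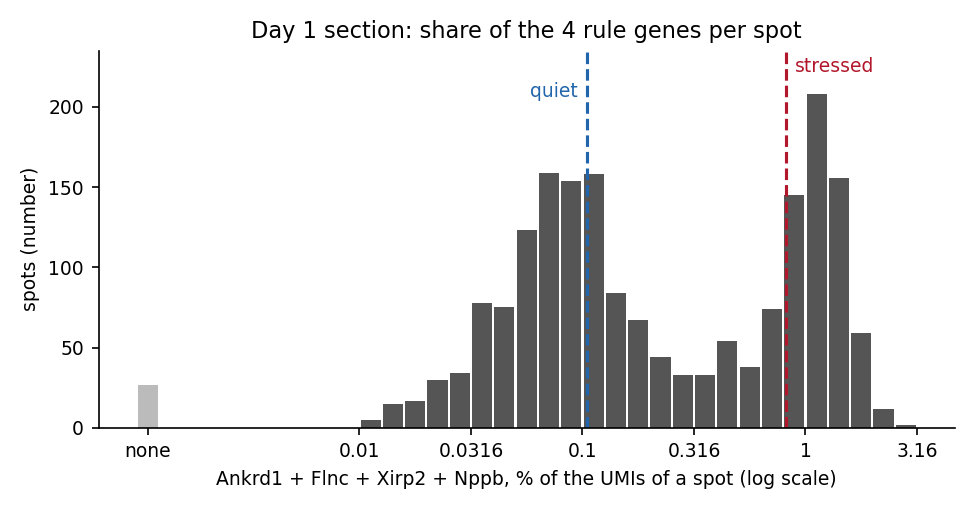
Number of day 1 spots (y axis) by the summed share of Ankrd1, Flnc, Xirp2 and Nppb in the UMIs of the spot (x axis, percent, log scale), with the 27 spots without such a UMI as the grey bar at the left. Dashed lines mark the limits of the quiet (left of 0.105%) and stressed (right of 0.82%) groups. The upper peak lies right of the stressed limit, and the quiet limit runs through the lower peak.

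The 4 genes went together when each was kept out of the score. With spots ranked by the other 3 genes, Nppb was at 1706 scaled CPM in the top and 59.59 in the bottom group, a log2 ratio of 4.84 (95% counting interval 4.66 to 5.03). For Ankrd1 the ratio was 3.22 (3.16 to 3.27), for Xirp2 2.54 (2.40 to 2.69) and for Flnc 2.37 (2.27 to 2.48). Between 90.6% and 97.2% of the stressed spots stayed in the top group whichever gene was left out. Much of this overlap was built in, because each such score shared 3 genes with the rule. The rule was chosen with earlier results of these data known, so the 4 ratios are a description and no support for the grouping. Ankrd1 alone made up 66.6% of the UMIs of the 4 genes in stressed spots. Scaled CPM are UMIs per 1000000 UMIs of the group, divided by a factor for each group that sets the median log2 ratio of all genes compared to 0. Intervals are exact and cover counting error only. With 1 section there was no replicate, no spread between mice and no test, and spots are not replicates. The word higher or lower is used below for a gene past 1.5-fold, that is past 0.58 on the log2 scale.

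Nppb and Nppa, which encodes atrial natriuretic peptide, are neighbours. Their starts lie 14822 bases apart on chromosome 4. Their promoters are shown with those of Ankrd1 and of Acta1, the skeletal muscle actin gene, because Ankrd1 and Nppb chose the spots, and Nppa and Acta1 were among the 15 genes with the largest ratios. Each run is the 250 bases before the RefSeq start in GRCm38.p6 (mm10), 5′ to 3′ on the strand of the gene. Capitals mark 3 motifs, which were searched on both strands and did not overlap in these windows. TATAAA is the core of the element that positions the start of transcription. CATTCC, which reads GGAATG on the other strand, is the M-CAT element that TEAD factors bind. The AP-1 site that Fos and Jun proteins bind was searched as TGACTCA.
Ankrd1, chr19:36119845-36120094, minus strand: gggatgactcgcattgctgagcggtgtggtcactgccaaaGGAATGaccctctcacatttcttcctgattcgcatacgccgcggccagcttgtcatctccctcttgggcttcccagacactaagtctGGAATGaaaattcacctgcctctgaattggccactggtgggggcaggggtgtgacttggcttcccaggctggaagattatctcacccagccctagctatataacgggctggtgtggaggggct
Nppb, chr4:147985650-147985899, plus strand: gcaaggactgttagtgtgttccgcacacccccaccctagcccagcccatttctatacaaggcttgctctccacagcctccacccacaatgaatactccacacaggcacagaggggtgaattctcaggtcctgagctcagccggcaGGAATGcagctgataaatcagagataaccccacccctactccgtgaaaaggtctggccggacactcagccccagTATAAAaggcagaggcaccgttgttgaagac
Nppa, chr4:148000472-148000721, plus strand: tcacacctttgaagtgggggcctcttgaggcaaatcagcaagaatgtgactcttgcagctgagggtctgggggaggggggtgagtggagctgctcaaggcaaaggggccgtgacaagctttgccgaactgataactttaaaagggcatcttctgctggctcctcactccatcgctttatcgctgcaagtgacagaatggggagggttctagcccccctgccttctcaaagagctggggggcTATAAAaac
Acta1, chr8:123894776-123895025, minus strand: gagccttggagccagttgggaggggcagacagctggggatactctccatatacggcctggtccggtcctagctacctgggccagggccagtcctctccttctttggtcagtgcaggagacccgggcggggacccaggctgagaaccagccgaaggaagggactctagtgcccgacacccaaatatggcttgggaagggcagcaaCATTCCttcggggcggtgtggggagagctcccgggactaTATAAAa
CATTCC was found at 2 places of the Ankrd1 window, and once each in the windows of Nppb and Acta1. TATAAA was found in those of Nppb, Nppa and Acta1, where it began 31, 9 and 7 bases before the RefSeq start. Whether these matches position the start of transcription was not tested. Over the windows of all 27025 genes with a RefSeq start, 14.4% held CATTCC, 14.3% TATAAA and 5.16% TGACTCA. Over the 5463 genes compared between the groups that had a window, the shares were 13.1%, 8.26% and 3.81%. Among the higher genes these shares were 12.6%, 10% and 4.72%, and among the lower genes 14.5%, 9.04% and 4.1%. Of the 15 highest genes 8 had a window, and 3 of these held CATTCC, 5 TATAAA and 1 TGACTCA. The motifs are matches of letters, and no binding was measured.

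Over all genes the contrast was broad. Of 6855 genes with at least 100 UMIs in both groups together, 1515 were higher in stressed spots (22.1%) and 1621 were lower (23.6%). The groups held 3775606 UMIs in stressed and 4830162 UMIs in quiet spots, with a median of 7292 and 6292.5 UMIs per spot. The 10th percentile over spots went the other way, at 2157 UMIs in stressed and 4377 in quiet spots. With the groups formed within 5 bins of UMIs per spot, 1432 of 6724 genes compared were higher (21.3%) and 1492 lower (22.2%). The centring on the median gene matters for the split into higher and lower genes. Per total UMI every log2 ratio was 0.45 greater, which gave 2947 higher and 787 lower genes, and per nuclear-encoded UMI there were 2269 higher and 1094 lower. The counts in the lists below are to be read against 22.1% higher and 23.6% lower over all genes compared. The gene minimum is on the sum of both groups, so a gene can pass it through 1 group alone. Ankrd2 (205 UMIs in stressed and 3 in quiet spots), Ch25h (175 and 2) and Myc (142 and 4) did so. The calls of such genes are partly set by the minimum. The median log2 ratio over all genes compared is 0.

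Both groups were ventricular heart muscle by their markers. All 10 cardiomyocyte markers had UMIs in both groups, and their summed share was 4.51% of UMIs in stressed and 7.62% in quiet spots. The 4 atrial markers together had 7 and 17 UMIs, with Sln and Bmp10 at 0 in both groups, and 9 fast skeletal muscle markers together had 16 and 18 UMIs. Of the cardiomyocyte markers 8 were lower and none was higher. Myh6, the adult cardiac myosin heavy chain, was at 2640 scaled CPM in stressed and 13445 in quiet spots (log2 -2.35, interval -2.38 to -2.32), whereas Actc1, cardiac actin, was at 9011 and 8787 (0.04). In spots that hold many cells, fewer cells of a type and less RNA per cell cannot be told apart.

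Markers of other cells moved with the groups. Summed over 10 neutrophil markers the level was 297.2 scaled CPM in stressed and 28.8 in quiet spots, with Ly6g at 0 in both. Per spot the sum ranged from 0 to 60.8 UMIs per 10000 with a median of 2.39 in stressed spots, and from 0 to 11 with a median of 0 in quiet spots. Summed over 10 macrophage markers the level was 906.7 and 429.9 scaled CPM, with spot medians of 8.44 and 2.53 per 10000. The macrophage list divided inside. Ccr2, a receptor of recruited monocytes, was at 130 UMIs in stressed and 7 in quiet spots (log2 4.03), while C1qa, a complement gene of resident macrophages, had 181 and 168 (0.01).

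Summed endothelial markers were at 725 and 773.6 scaled CPM, and 1 of the 9 compared was lower, whereas per total UMI 4 were higher and none lower. Fibroblast markers split, with 5 higher, 3 lower and 1 between. Pdgfra, Col1a1, Col1a2, Col3a1 and Serpinf1 were higher by log2 1.03 to 1.26, and Gsn (-2.03), Dpt (-1.17) and Dcn (-1.07) were lower. Lymphocyte markers summed to 48 and 22 UMIs. Mesothelium markers summed to 34 and 89. The mitochondrially encoded share of UMIs was 20.7% in stressed and 30.4% in quiet spots. The part of these other cells in the results below was not tested. With only the spots at or below the median of all spots for the sum of such markers, ranked anew, 23.3% of the genes compared were higher and 24.8% lower. Fibroblast markers were the largest part of that sum, at 2363 scaled CPM in stressed and 3515 in quiet spots. This limit therefore cannot show the part of neutrophils or macrophages.

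Fetal and hypertrophy genes were mostly higher in stressed spots. Of 12 genes, 8 had enough UMIs, and 6 of these were higher and none lower (median log2 3.99). With no gene minimum the median was 2.40. Nppa was at 3200 scaled CPM (interval 3147 to 3253) in stressed and 106 (96.3 to 116) in quiet spots, 30.1-fold. Acta1 was at 4784 and 182, which is 26.3-fold. Sprr1a, a small proline-rich protein of stressed heart muscle, had 587 and 14 UMIs (37.9-fold), and Ankrd2, a relative of Ankrd1, had 205 and 3 (log2 5.78, interval 4.43 to 8.29). Rcan1, a target and inhibitor of calcineurin, was higher by 3.27. Myh7, the fetal myosin heavy chain in mice, was at 370 in stressed and 408 in quiet spots (-0.14), so it did not join them.

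Genes of the Z-disc and costamere, which anchor and sense force, went both ways. Of 22 compared, 11 were higher and 4 lower. Fhl1 was at 1091 scaled CPM in stressed and 158 in quiet spots (log2 2.79), and Synpo2l (2.61), the alpha-actinin Actn1 (2.58) and Xirp1 (1.76) were higher too. The titin cap gene Tcap was at 406 and 3155 (-2.96), and Fhl2, sister of Fhl1, at 240 and 1470 (-2.61). Among sarcomere genes proper, 11 of 14 were lower and none higher (median -1.04), from Myh6 at -2.35 to Tpm1 (-0.21), Tnnc1 (-0.38) and Actc1, which were between. Per total UMI 7 of the 14 were lower.

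**Figure D2:**
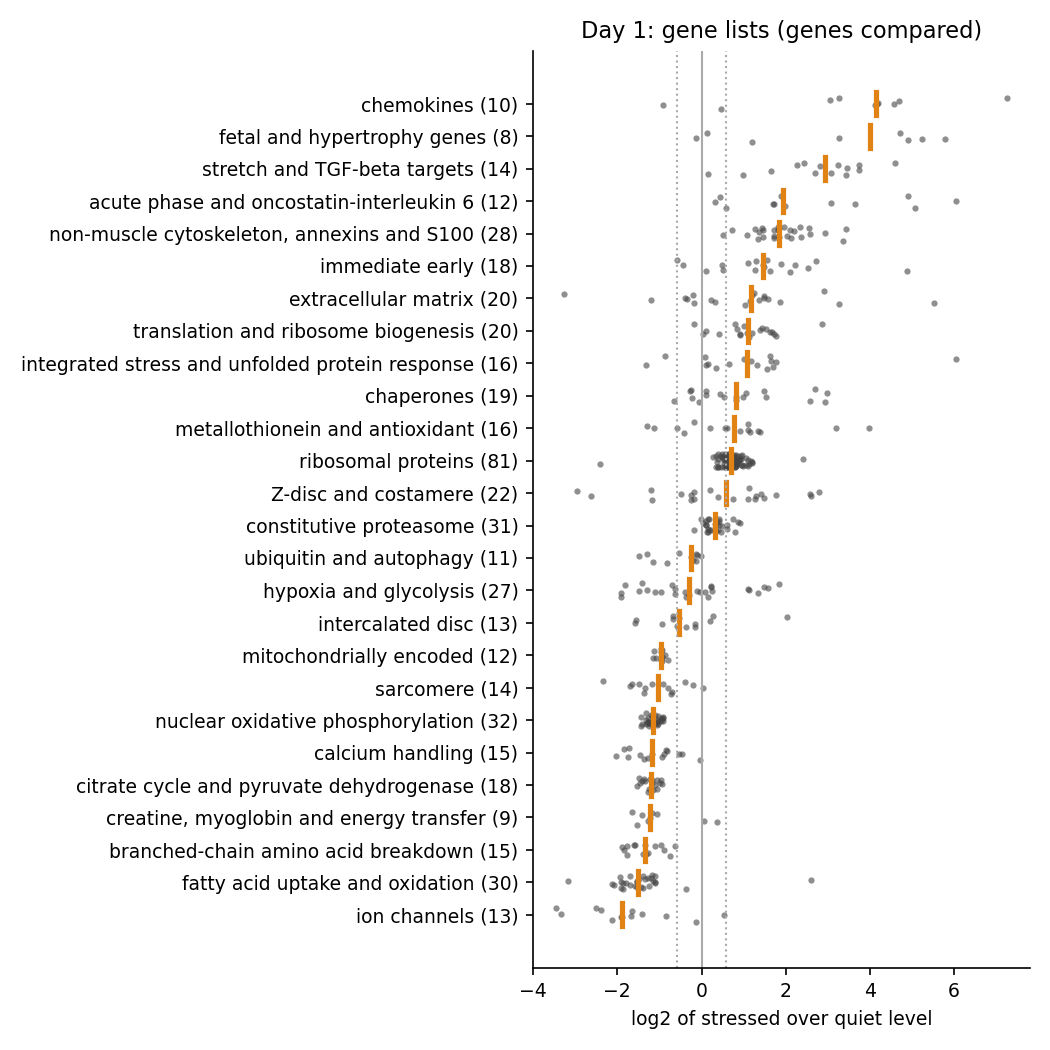
Log2 of the stressed over the quiet level on day 1 (x axis) for every compared gene (points, spread vertically for sight) of 26 lists (y axis, number compared in parentheses), with list medians as orange bars and 1.5-fold either way as dotted lines. Chemokines and fetal genes have medians near 4, while oxidative metabolism, calcium and ion channel lists lie below -0.9.

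Isoforms of single functions could differ in direction. The values below are a description, since the pairs were picked with them known. In 16 pairs of a widely expressed, fetal or skeletal muscle form with the form that adult heart muscle uses, the log2 ratio of the first exceeded that of the second in 16, and by more than 1.5-fold in 15. Fhl1 over Fhl2 differed by 5.40. The ribosomal protein Rpl3 was at 576 in stressed and 108 in quiet spots, and its muscle form Rpl3l at 81.6 and 432, a difference of 4.81. Acta1 and Actc1 differed by 4.68. The glucose transporters Slc2a1 (1.85) and Slc2a4 (-1.92) and the enolases Eno1 (1.49) and Eno3 (-1.90) moved apart likewise. The smallest difference was 0.35, between Cox7a2 and Cox7a1, both of which were lower.

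Protein stress genes were higher in part. Of 19 chaperones, 10 were higher and 1, the mitochondrial Hspa9 (-0.65), was lower, whereas per total UMI 12 were higher and none lower. The small heat shock genes Hspb1 and Cryab, which protect the Z-disc, were at 11245 and 34147 UMIs in stressed and 1386 and 11333 in quiet spots (7.59-fold and 2.82-fold). The inducible Hspa1a (2.99) and Hspa1b (2.57) were higher, whereas Hspb6 (-0.05), Hspb7 (0.10) and the cochaperone Bag3 (-0.24) were between. Clu, secreted clusterin, was at 3908 and 608 scaled CPM, 6.42-fold. Of 16 genes of the integrated stress and unfolded protein responses 10 were higher and 2 lower (12 and 1 per total UMI). Gdf15, a stress cytokine, had 316 UMIs in stressed and 4 in quiet spots (65.8-fold, log2 interval 4.84 to 8.09), the largest ratio among genes with at least 300 UMIs. Atf3 was higher by 1.65 and Ddit3, which encodes CHOP, was at 0.09.

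Of 16 metal and redox genes compared, 9 were higher and 3 lower (11 and 2 per total UMI). Hmox1, heme oxygenase, had 378 and 22 UMIs (log2 3.98), and the metallothioneins Mt2 (3.19) and Mt1 (1.38) were higher. The mitochondrial Sod2 (-1.29), the peroxisomal Cat (-1.12) and the cytosolic Nqo1 (-0.59) were lower. Of 18 immediate early genes, transcription factors and feedback genes that respond within minutes, 13 were higher and 1 lower. Myc had 142 and 4 UMIs (4.89), and Junb (2.71), Egr1 (2.53) and Fos (1.90) were higher. Dusp1, a kinase phosphatase, was lower (-0.59), and Jun was at 0.49. Per total UMI 15 of the immediate early genes were higher and none lower.

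Targets of stretch and TGF-beta signalling were nearly all higher, 13 of 14, with a median log2 of 2.94. Ccn2, the matricellular connective tissue growth factor, was at 3674 UMIs in stressed and 312 in quiet spots (3.46). Thbs1, thrombospondin, had 375 and 14 (24.2-fold). Only Amotl2, at 0.15, was between. Non-muscle cytoskeleton, annexin and S100 genes were higher in 27 of 28 and lower in none (median 1.83). Actb was at 10723 and 3041 UMIs (1.72), Vim at 2971 and 604 (2.20) and the tubulin gene Tubb6 at 1008 and 91 (3.37). Annexin A5, Anxa5, was between at 0.52. Myocytes and the immune and stromal cells of the spot all use these genes.

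Extracellular matrix genes were higher in 12 of 20 and lower in 2. Tnc, tenascin C, had 566 UMIs in stressed and 11 in quiet spots (46.1-fold). Fn1, fibronectin, was at 354 and 36.6 scaled CPM (9.67-fold), and Postn, the periostin gene of activated fibroblasts, at 2.90 on the log2 scale. Fibrillar collagens differed less, with Col1a1 at 245 and 106 and Col3a1 at 666.5 and 326.3 (2.3-fold and 2.04-fold). Timp4, the metalloproteinase inhibitor typical of heart, was the lowest of the list, with 13 and 121 UMIs (-3.27). Timp1, its inducible relative, was at 1222 (interval 1190 to 1255) in stressed and 36.1 (30.5 to 42.3) in quiet spots, 33.8-fold. Timp3 was at -0.33.

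Chemokine and acute phase genes were mostly higher. Of 10 chemokines compared, 8 were higher and 1, Ccl21a, which is made by lymphatic vessels, was lower (-0.91). Per total UMI 9 chemokines were higher and none lower. Ccl2 and Ccl7, which recruit monocytes, had 1163 and 943 UMIs in stressed and 42 and 48 in quiet spots (log2 4.68 and 4.19). Cxcl5 and Cxcl1, which recruit neutrophils, were higher by 4.57 and 4.17. Cxcl10, an interferon target, had 245 UMIs and 1 (7.26, interval 5.35 to 13.2). Of 12 genes compared on the list for the acute phase and for oncostatin and interleukin 6, 10 were higher and none lower. The list is broader than its name and holds Spp1, Timp1 and Ch25h. Spp1, osteopontin, had 1427 and 44 UMIs (30-fold). Socs3, a feedback inhibitor of interleukin 6 signalling, had 245 and 18 (3.63), and Osmr, the oncostatin M receptor, 264 and 66 (1.90). Stat3 (0.59) was just past the limit and Il6st (0.32) between. Neutrophil and macrophage markers moved with these genes, as given above, and the part of those cells was not tested.

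Genes of oxidative metabolism were lower, to an extent that depends on the scaling. All 32 nuclear genes of oxidative phosphorylation were lower, within a narrow range from Uqcrfs1 (-1.43) to Cox7b (-0.92), and so were all 12 mitochondrially encoded genes compared (-1.15 to -0.80). All 18 genes of the citrate cycle and pyruvate dehydrogenase (median -1.19) and all 15 of branched-chain amino acid breakdown (-1.34) were lower. Of 30 genes of fatty acid uptake and oxidation 28 were lower (median -1.5). Fabp3, the fatty acid carrier of heart, was at 7750 UMIs in stressed and 30563 in quiet spots (-2.08), and Acsl1, which activates fatty acids, at 645 and 2647 (-2.13). Per total UMI, 24 of the 32 nuclear and 3 of the 12 mitochondrially encoded genes, 15 of the 18 citrate cycle, 11 of the 15 branched-chain and 28 of the 30 fatty acid genes were lower. Pdk4, which shuts pyruvate out of oxidation, was between at -0.37. Angptl4, an inhibitor of lipoprotein lipase and a hypoxia target, was higher, with 349 and 53 UMIs (2.61).

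Glycolysis and hypoxia genes did not move as a block, with 6 of 27 higher and 11 lower. The count of higher genes was near the share over all genes compared (22.1% higher and 23.6% lower). Slc2a1 (1.85), the vessel dilator Adm (1.57) and Eno1 (1.49) were higher. Slc2a4 (-1.92), Eno3 (-1.90) and Pfkm (-1.81) were lower. Vegfa (-0.40), Pgk1 (0.23), Hk2 (0.25) and Ldha (-0.04) were between. Energy transfer genes were lower in 7 of 9. Myoglobin, Mb, was at 30157 and 81044 UMIs (-1.52), and the muscle creatine kinase Ckm at 4942 and 14517 (-1.65).

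Genes of excitation and calcium cycling were lower. Of 13 ion channel genes 11 were lower and none was higher (median -1.88). Kcnip2, an auxiliary subunit of the transient outward current channel Kcnd2, was at 56 UMIs in stressed and 532 in quiet spots (10.1-fold lower). Kcnj3, an acetylcholine-gated channel, was at 19 and 201 (-3.46). Kcnq1, a potassium channel gene, was between at -0.13. Of 15 calcium handling genes 12 were lower, among them Atp2a2, the calcium pump of the sarcoplasmic reticulum (-1.37), its inhibitor Pln (-1.73) and the release channel Ryr2 (-1.75). The exchanger Slc8a1 (-0.53) and Camk2d (-0.02) were between. Of 13 genes listed for the intercalated disc 6 were lower, with Dsc2 (-1.57) and Dsg2 (-1.54) lowest. The 1 that was higher, Vcan (190 and 43 UMIs, 2.04), encodes versican, a matrix proteoglycan, and is no disc gene. Connexin 43, Gja1, had 1674 and 1742 UMIs (-0.15). Per total UMI 3 of the genes listed for the disc were higher and 2 lower, and 8 calcium handling genes were lower. Of the ion channel genes 10 were lower and 1 higher on that scale.

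Ribosomal protein genes were shifted as a body by a small amount. Of 81 compared, 61 were higher and 1, the muscle form Rpl3l, was lower (median 0.71). Of 20 other translation and ribosome biogenesis genes 16 were higher and none lower (median 1.11), with Rrp12, which assembles ribosomes, at 308 and 39 UMIs (2.87). The proteasome moved less. Of 31 subunits, 6 were higher, 25 were between and none was lower (median 0.32). The count of higher subunits was no more than the share over all genes compared (22.1%). Of 11 ubiquitin and autophagy genes 4 were lower, the ubiquitin ligase genes Fbxo32 (-1.16) and Trim63 (-0.82) among them, and none was higher. Per total UMI 24 proteasome subunits and 80 ribosomal protein genes were higher. The medians of the ubiquitin and autophagy list and of the hypoxia and glycolysis list changed sign on that scale, to 0.21 and 0.15. Those of the endothelial and of the smooth muscle and pericyte markers did so too, to 0.23 and 0.10.

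At the bottom of the whole contrast, Efnb3, an ephrin ligand, had 32 UMIs in stressed and 514 in quiet spots, 16.9-fold lower. Gm31251, a long noncoding RNA gene that overlaps Myh7, had 18 and 290 (16.8-fold), and its reads could be split with that gene. Lrtm1 (13.7-fold), Ttll1, a tubulin glutamylase (12.4-fold), the membrane carbonic anhydrase Car14 (9.60-fold) and Dhrs7c of the sarcoplasmic reticulum (9.37-fold) followed. Further down came the lipid esterase Ces1d, Ppm1k, which activates branched-chain amino acid breakdown, Abhd18, Selenbp1, the serine protease Htra3, the alanine transaminase Gpt and the transcriptional cofactor Hopx, between 6.87-fold and 9.07-fold lower. At the other end, not yet named, were Serpinb1a, an inhibitor of neutrophil proteases (1001 and 39 UMIs, 23.7-fold), the arginase Arg1 (495 and 20, 22.6-fold) and the interferon target Isg15 (476 and 25, 17.5-fold).

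Among the genes that the study names are Lrp1, Cd63 and Cd74, listed with App, Cd82 and Cd44 as potential receptors of TIMP1. Its ligand and receptor inference predicted LRP1. In these same sections the study found that spots with both Timp1 and Lrp1 grew more frequent over time in its infarct zone. It also stained both proteins together in most cultured heart myofibroblasts, and followed Lrp1 RNA in infarcted hearts of young mice. Its infarct zone came from clustering and is not the stressed group compared here. Values of App, Cd82 and Cd44 are not given here. The study read the effect of a TIMP1 fragment on primate heart fibroblasts as excluding a signal through CD63 or APP. Cd63, a tetraspanin, was at 628 scaled CPM in stressed and 156 in quiet spots (4.01-fold). Cd74, the invariant chain of antigen presentation, was at 58.5 and 11.4 (5.09-fold). Lrp1, an endocytic receptor, was at 144 and 107 (1.35-fold, log2 interval 0.25 to 0.61) and so between. Myl2, ventricular myosin light chain, was at 5734 and 16138 (2.81-fold lower).

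The groups separated spot by spot as well as in sum. Acta1 took a median of 49.4 UMIs per 10000 of a stressed spot and 1.25 of a quiet spot, and 99.5% of stressed spots lay above the 90th percentile of quiet spots. For Nppa this share was 95.9%, for Timp1 96.8%, for Hspb1 97.7% and for Ccn2 86%. Downward, 99.6% of stressed spots had less Myh6 than the 10th percentile of quiet spots, with medians of 27.5 and 115 per 10000, and for Tcap and Fabp3 the shares were 98.2% and 97.2%. The overlap was wider for Tmsb4x, thymosin beta 4 (68.1% above), and for the mitochondrial transcripts mt-Co1 (68.3% below) and mt-Atp6 (52.7% below).

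**Figure D3:**
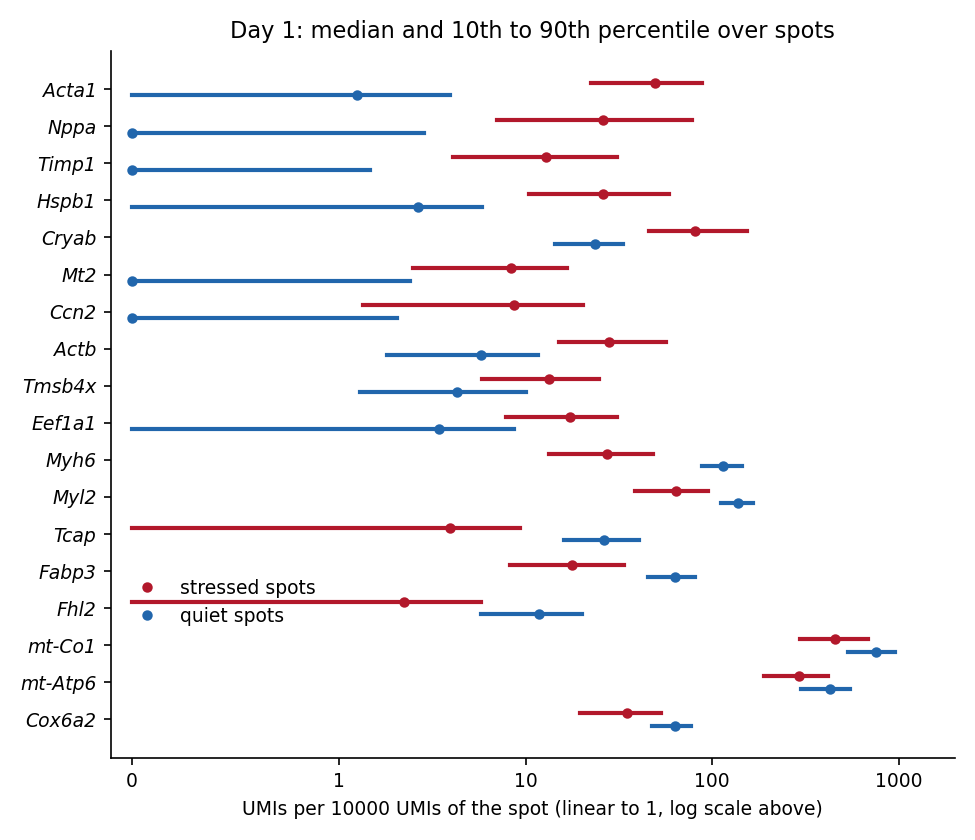
UMIs per 10000 UMIs of a spot (x axis, linear to 1 and log scale above) for 18 abundant genes (y axis) in the 565 stressed (red) and 754 quiet (blue) spots of day 1, with the median as a point and the 10th to 90th percentile as a line. The lines of the 2 groups are apart for Acta1, Nppa, Timp1, Myh6 and Fabp3 and overlap for Tmsb4x and mt-Atp6.

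Cut into 10 classes of equal size by the share of the 4 genes, from class 1 to class 10, the section had a flat part and a steep part. Myh6 lay between 12499 and 13509 scaled CPM in classes 1 to 5, at 10370 in class 6 and 6140 in class 7, and at 2097 in class 10. Kcnip2 went from 137 in class 4 to 36.5 in class 7 and 8.37 in class 10. Some transcripts of the stressed side kept on with the score to its top. Nppa was at 2048, 3243 and 4182 in the 3 highest classes, Ccn2 at 517, 764 and 1176, Hspb1 at 1664, 2162 and 3701, Cryab at 5947, 7023 and 10000, and Gdf15 at 45.8, 58.1 and 107.5.

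Others levelled off. Ccl2 was at 59.2 in class 6, 187.7 in class 7 and then 270, 274 and 248. Spp1 (343, 285 and 343), Tmsb4x (1234, 1216 and 1180) and Mt2 (854, 794 and 776) had no further gain over the same 3 classes, and Hmox1 was at 101, 94 and 64.4. Mt2, Spp1 and Ccl2 were already raised in class 6, where they were at 252.5, 104.9 and 59.2, against 75.2, 10.5 and 6.66 in class 4. Genes that were highest in class 10 differed among themselves at this point. Acta1 was at 214 in class 4 and 657 in class 6, Timp1 at 34.3 and 124, and Rcan1 at 52.4 and 121. Nppa was at 133 in class 4 and 157 in class 6, and Ccn2 at 64.7 and 84.5. Summed macrophage markers followed the second pattern (950, 940 and 835), neutrophil markers were at 274.5, 253 and 360, and endothelial markers stayed between 690 and 841 over all classes. Summed fibroblast markers went from 3840 in class 5 to 1808 in class 10.

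**Figure D4:**
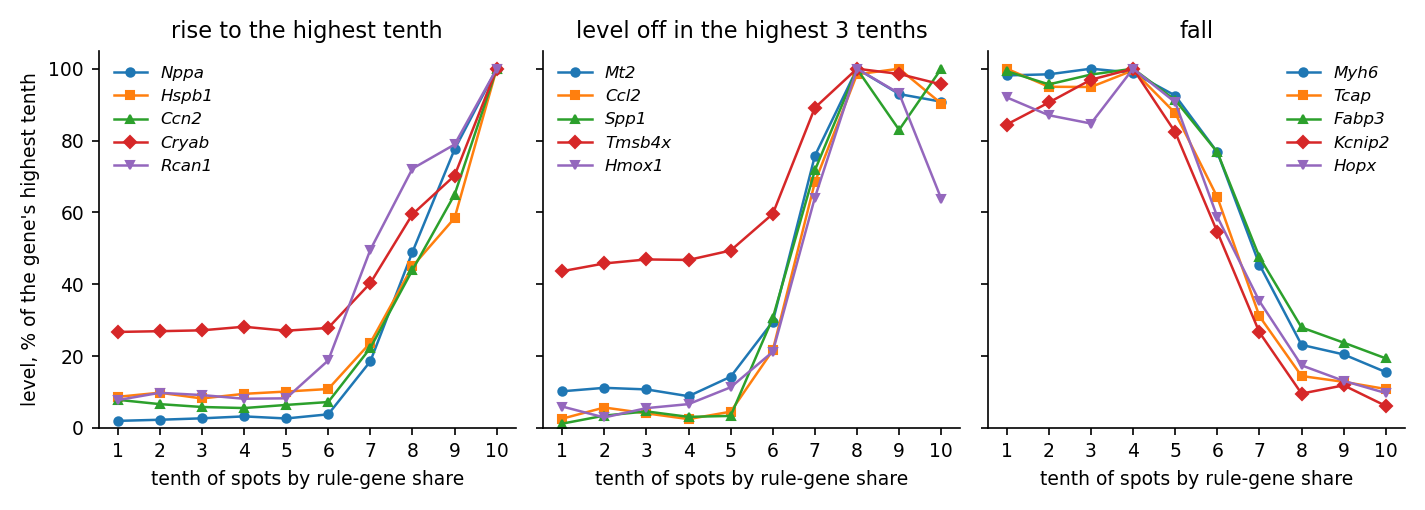
Level of 15 genes, chosen after values had been seen, in 10 classes of equal size of the 1884 day 1 spots ranked by the share of the 4 rule genes (x axis), as percent of the gene's highest class (y axis). Nppa, Hspb1, Ccn2, Cryab and Rcan1 are highest in class 10, Mt2, Ccl2, Spp1, Tmsb4x and Hmox1 gain nothing steady after class 8, and Myh6, Tcap, Fabp3, Kcnip2 and Hopx are flat to class 4 and lowest in class 10.

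The same rule was applied within each later section, each from another mouse, so days and mice cannot be told apart. The contrast was smaller there, but so was the score of the high groups. The rule takes the same part of the spots in each section, whatever their scores. The highest share of the 4 genes in any spot was 2.55% on day 1, and 1.13%, 1.87% and 1.18% on days 4, 7 and 14. Why the scores were lower was not tested. The median share of the 4 genes in the high groups was 0.467%, 0.513% and 0.202% on days 4, 7 and 14. On day 1 it was 1.19%, and 0.209% in the spots between the stressed and quiet groups. Whether spots of equal score differ less on the later days was not tested. On day 4, 6.13% of 7793 genes were higher and 6.12% lower in spots with a high share of the 4 genes. On day 7 it was 3.71% and 5.17% of 6436, and on day 14 1.76% and 1.89% of 6771. Of the genes higher on day 1 and compared in both, 11.1%, 5.55% and 2.95% were also higher on days 4, 7 and 14. Opposite calls, lower on those days, were made for 51, 134 and 51 of them. Of the genes lower on day 1, 20.7%, 2.23% and 1.31% were lower again, and 51, 67 and 13 were higher. On days 7 and 14 the shares lower again were below the 5.17% and 1.89% over all genes compared on those days. The low groups of these sections held other tissue too. On day 7 all 9 fast skeletal muscle markers were lower in the high group (median log2 -5.84), and Acta1, which skeletal muscle also makes, was at 886 in high and 3891 in low spots.

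A second comparison, added after these values had been seen, took only spots with at least 0.5 of the median Actc1 share of their section, and so with heart muscle, and ranked these anew. On day 1 it moved little, with 22.5% of genes higher and 23.8% lower. On day 4 the shares became 20.2% and 17.8%, on day 7 12.9% and 9.72%, and on day 14 4% and 1.08%. Of the genes higher on day 1 and compared in both, 59.5% were also higher on day 4, 38.7% on day 7 and 11.2% on day 14, which made up 64.2%, 59.6% and 53% of the genes higher on those days. Of the genes lower on day 1, 59.8%, 30.8% and 2.29% were lower again, which made up 81.1%, 84.8% and 70.6% of those days' lower genes. Opposite calls were made too. Of the genes lower on day 1, 32, 33 and 25 were higher on days 4, 7 and 14, and of those higher on day 1, 7, 5 and 5 were lower.

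The high groups of these spots also held more RNA of other cells. Macrophage markers were higher in 8 of 8 on day 4, 5 of 6 on day 7 and 1 of 6 on day 14, and none was lower. Fibroblast markers were higher in 7 of 10, 8 of 9 and 5 of 10, with 1 lower on day 4. The part of these cells in the ratios below was not tested, and neither was that of the lower scores of later high groups given above. In these spots the ratios of named genes differed between the days to different extents. Nppa was at 3255 in high and 106 in low spots on day 1, 18056 and 565 on day 4, 3408 and 198 on day 7, and 394 and 27.1 on day 14, with log2 ratios of 4.93, 5.00, 4.10 and 3.86. Clu had 2.69, 3.45, 2.76 and 0.98. Timp1 went from 1216 in high spots on day 1 to 480, 125.5 and 21.7 on the later days, with ratios of 5.18, 3.27, 2.29 and 1.81. Myh6 in high spots was at 2619, 4527, 7076 and 9395, with ratios of -2.37, -1.48, -0.75 and -0.26, and in low spots it stayed between 11281 and 13512.

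The lists differed in the same way. Nuclear oxidative phosphorylation genes were lower in 32 of 32 on days 1 and 4, in 28 on day 7 and in none on day 14. Non-muscle cytoskeleton genes were higher in 27 of 28, 27 of 28, 18 of 27 and 4 of 27. Matrix genes had their greatest median on day 4 (2.72) rather than day 1 (1.26), with 17 and 12 of 20 higher, and Fn1 was at 982 in high spots on day 4 and 352.5 on day 1. Ribosomal proteins (61 of 81 higher on day 1) were higher in 11 on day 4 and in 1 on day 7, and the median of the chaperone list was 0.79 on day 1 and -0.22 on day 4. Htra3, lower on day 1 (-2.80), was at 0.36, 0.61 and 0.28 on the later days.

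**Figure D5:**
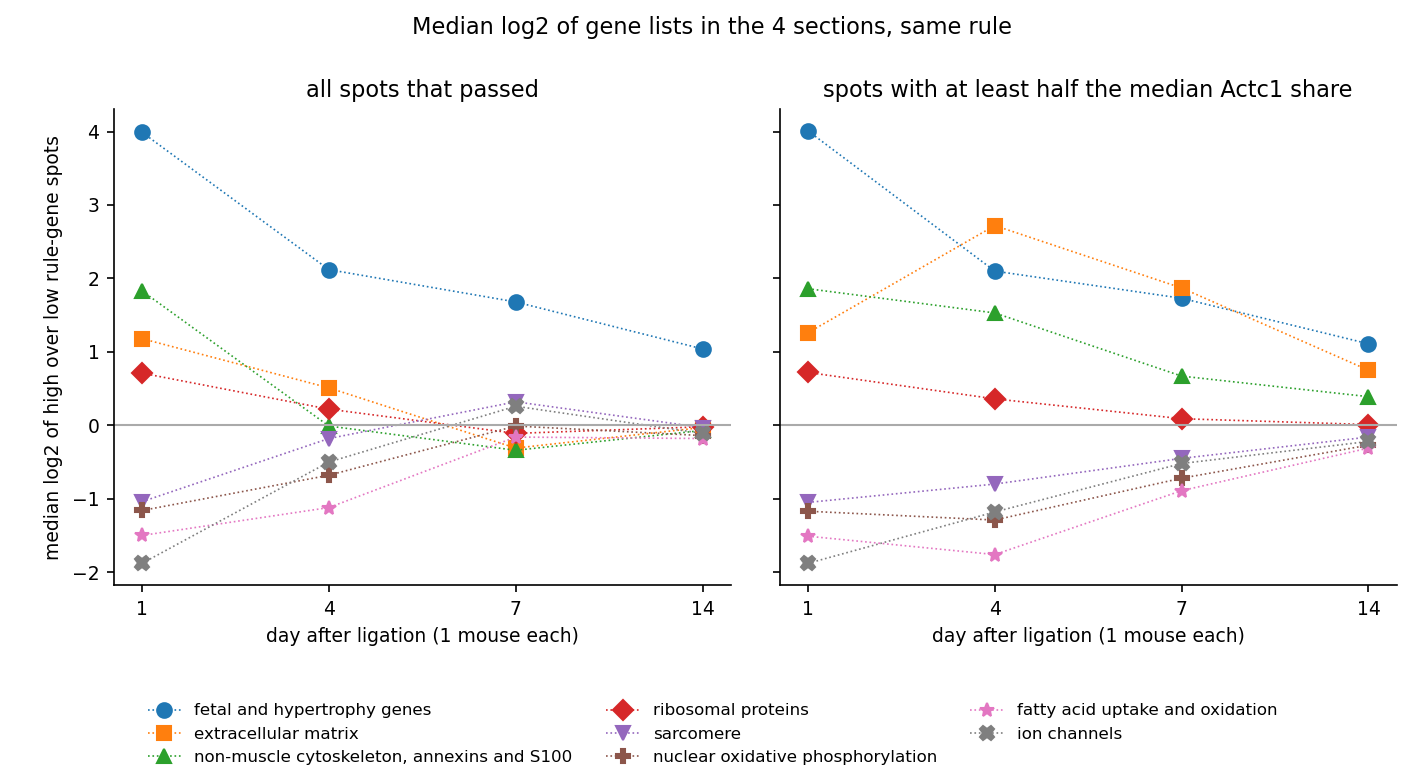
Median log2 ratio of spots with a high over a low share of the 4 rule genes (y axis) for 8 gene lists in the sections of days 1, 4, 7 and 14 (x axis, not to scale in time, 1 mouse each), over all spots that passed (left) and over spots with at least 0.5 of the median Actc1 share (right). Dotted lines join values of a list for sight and are no time course of a mouse. Fetal genes lie above 1 on all days in both panels, while metabolic lists come near 0 by day 14.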

How the data were processed

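Gene counts of 4 Visium sections were used as the authors deposited them: UMI counts per gene and spot, made with Space Ranger 1.3.0 on mm10, with spots placed by manual image alignment. Every row named a gene. No normalization by the authors was used. Visium barcodes encode slide positions, so 1647 to 1918 of the day 1 barcodes recurred in another section.

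UMIs were summed over the spots of each group, given as CPM and centred so that the median log2 ratio of the compared genes was 0 (pseudocount 0.5 UMI). Genes needed 100 UMIs over both groups. The limit for a higher or lower call was 1.5-fold. The sections have no replicates, so no test was run, and exact 95% intervals cover counting error only. Named genes were the 15 highest and the 15 lowest with at least 300 UMIs, and 11 genes named in the study. The members, lists and rules were chosen with earlier results of these data known. Isoform pairs, the genes plotted by rank class and the Actc1 limit were chosen after values were seen. Alternatives changed the score, limits, scaling (also TMM factors from edgeR 4.0.16) and filters, 24 in all. The steps ran in Python 3.11.15 (numpy 2.4.6, scipy 1.17.1, pandas 2.3.3) and were tested on simulated data. Some list members are not reported here.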

Additional observations from a re-analysis of the deposited data

Results flagged for a closer look

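Of 533 genes of the lists and named genes that were compared in all 4 sections, 6 were higher in stressed spots on day 1 and lower in the high spots of days 4, 7 and 14. The difference between sections, which come from different mice, was not tested. Timp1 had a log2 ratio of 5.08 on day 1 and of -0.62, -1.34 and -1.34 on days 4, 7 and 14. Lgals3, galectin 3, had 3.44 and then -1.22, -2.33 and -1.54. The chemokines Ccl6 (3.26, then -1.04, -1.01 and -1.51) and Ccl9 (3.05, then -1.13, -1.15 and -1.17) did likewise. Angptl4 had 2.61, then -1.37, -1.87 and -0.61, and S100a4 had 2.35, then -1.01, -1.18 and -0.72. In spots with at least 0.5 of the median Actc1 share no such turn was seen among the values compared. There Timp1 had 5.18, 3.27, 2.29 and 1.81, S100a4 2.48, 2.38, 0.71 and 0.63, and Ccl6 3.4, 1.33, 0.52 and 0.03. On days 1 and 4 Lgals3 had 3.56 and 2.37, and Angptl4 2.78 and 1.56. Ccl9 had 3.32, 1.13 and 0.37 on days 1, 4 and 7.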

How the results depend on the processing

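The counts of higher and lower genes on day 1, 1515 and 1621, depended on scaling, gene minimum and fold. They were 2947 and 787 per total UMI without centring, 758 and 788 with a minimum of 300 UMIs, 3630 and 3424 with no minimum, 784 and 831 at 2-fold, and 975 and 1038 in spots at or below the median for markers of other cells, ranked anew. With TMM factors they were 1529 and 1607. In spots with at least 0.5 of the median Actc1 share, a choice made after seeing the data, the counts were 1366 and 1206 on day 4 (478 and 477 over all spots), 679 and 510 on day 7 (239 and 333), and 259 and 70 on day 14 (119 and 128). The 38 named genes past 1.5-fold stayed past it in the same direction in all 912 values. Most of them had been picked from these same data for their extreme ratios, so this could hardly have come out otherwise. The value nearest to the limit was that of Col3a1, which the study names, at 0.61 with a score without Ankrd1 in place of 1.03. The adipocyte list, with Cfd alone compared, had -1.15 and turned to 1.16 in the Actc1 spots. The cause was not tested. With a score without Ankrd1, Spp1 had 3.27 in place of 4.91 and Arg1 3.17 in place of 4.50. No paired analysis was possible because each day has 1 section and both groups are spots of it. Genes with few UMIs in quiet spots have wide intervals, and the spread between mice is unknown.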
